A study of Caenorhabditis elegans with 6 samples.

Results

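The unc genes of Caenorhabditis elegans were named for worms that move in an uncoordinated way. They were taken here by identifier, as the rows from WBGene00006741 to WBGene00006843 without WBGene00006754 (unc-15) and WBGene00006789 (unc-54), the main proteins of the muscle thick filament. Of these identifiers 88 were annotated genes, and 41 were among the 5739 genes of the deposited table. One of the 41 carries the symbol tln-1 and encodes talin, which links integrins to actin.

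The table came from polysomes pulled from neurons of L4 larvae, a late larval stage, in 3 libraries of worms carrying alg-2(ok304) and 3 libraries of wild-type worms. ALG-2 is an Argonaute, a protein that carries microRNAs to their target messenger RNAs, and ok304 is a mutant allele of its gene. Both strains carried a transgene in which the rgef-1 promoter, active across the nervous system, drove an epitope-tagged RPL-18, a protein of the large ribosomal subunit. Ribosomes with this protein were captured on anti-FLAG beads from extracts of whole worms grown at 20 °C, and their RNA was sequenced, to compare the messages on neuronal ribosomes between the strains. In the strain list of the study the tag of the alg-2(ok304) strain is written as HA, and that of wild type as FLAG. The headers of the alg-2(ok304) columns name an alg-1 knockout, whereas the strain number in the same headers belongs to alg-2(ok304) in the strain list, and that assignment was used.

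Coordinated movement needs a chain of steps. Motor neurons extend axons, motors carry vesicle precursors along the axon, vesicles are primed and fuse at the synapse, and receptors on body wall muscle pass the signal to a sarcomere that is anchored to the cuticle through integrin attachments. Screens for uncoordinated worms hit all of these steps, so the unc genes include neuronal genes, muscle genes and genes used in many tissues. From textbook roles, 49 of the annotated members were classed as neuronal, 23 as muscle and 14 as other, with tln-1 among those left without a class.

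The 6 columns of libraries hold fitted values of a model and not read counts. Within the alg-2(ok304) group the second column was 1.17 times and the third 2.24 times the first in every gene above 0, and in wild type these ratios were 1.40 and 1.52. Library values within a group therefore differ by a constant factor and carry no spread between replicates, so no test was possible and every difference given here is a description without a p-value. Whether the libraries of the groups overlap for a gene is likewise fixed by its group ratio and these factors, and says nothing of agreement between replicates. Fitted reads of a group were summed over its 3 libraries. The smallest non-zero sums stood near steps of single reads, at 0.853 to 1.23 in alg-2(ok304) and 0.942 to 1.13 in wild type, and a gene on this lowest step has next to no reads behind it.

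Of all fitted reads, ribosomal RNA took 85.1% in alg-2(ok304) libraries and 97.9% in wild-type ones. Outside the ribosomal RNA genes and the genes within 2 kb of them, 608184 to 1365323 fitted reads per library remained in alg-2(ok304) and 108700 to 164986 in wild type. Ratios of alg-2(ok304) over wild type were set relative to the median ratio of the 797 genes with at least 10 fitted reads in both groups, which was 2.68-fold (1.42 on the log2 scale). On this scale the median of all 2630 genes above 0 in both groups was 0.51, and the quantity called log2 ratio below is always relative to the 2.68-fold ratio. Divided by the totals of all genes, every log2 ratio would be 2.54 higher, and by the totals outside ribosomal RNA and nearby genes 1.24 lower. A gene is called higher or lower where the log2 ratio reached 1 or -1, and a gene at 0 in a group gets no ratio.

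Several defining markers of neurons were not listed, among them rgef-1 itself, rab-3, snt-1 and ric-4. Of 20 neuron markers 6 were listed, with unscaled sums of 64.4 fitted reads in alg-2(ok304) and 63.97 in wild type, and 59.03 of the wild-type sum came from mec-7, a tubulin of touch neurons that was at 0 in alg-2(ok304). Of 15 body wall muscle markers 13 were listed, with 1343 fitted reads in alg-2(ok304) and 866 in wild type. Hypodermis had 11 of 15 markers listed, with 569 and 750 fitted reads in the same order. Intestine had 9 of 15 (725 and 179) and germline 7 of 15 (37.5 and 9.56). These sums are unscaled, and the direction of each list depends on the scale. Per 1000000 fitted reads outside ribosomal RNA and nearby genes, alg-2(ok304) was below wild type in all 5 lists, with neuron markers at 23.98 and 150.4, body wall muscle at 500 and 2034, hypodermis at 212 and 1764, intestine at 269.7 and 422, and germline at 13.96 and 22.5. Relative to the 2.68-fold ratio used here, the sums of intestine and germline were higher in alg-2(ok304) and the other 3 lower. In both cases the neuron sum was lower in alg-2(ok304) through mec-7 alone. Gene by gene the picture differed. Of the neuron markers 3 were higher and 2 above 0 in alg-2(ok304) alone, and mec-7 was above 0 in wild type alone. Median log2 ratios of genes above 0 in both groups were 2.17 in neuron (3 genes), -0.71 in intestine and -0.33 in germline markers. In body wall muscle and hypodermis they were -0.29 and 0.097. In alg-2(ok304), asp-1 held 483 of the intestine sum. The part of RNA from cells outside the nervous system in the results on the unc genes was not tested, and in such bulk libraries fewer cells of a type and less RNA per cell cannot be told apart. The gene alg-2 had 2.51, 2.95 and 5.65 fitted reads in the alg-2(ok304) libraries, against 4.24, 5.92 and 6.43 in wild type (log2 ratio -2.002), but where ok304 removes sequence is not given in the sources used here, so this does not check the genotype. The gene rpl-18, whose protein carried the tag, summed to 317 fitted reads in alg-2(ok304) and 66.9 in wild type (log2 ratio 0.82).

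A larger share of the unc genes than of all protein-coding genes was listed, and a larger share of muscle than of neuronal members. Of the 88 annotated members 46.6% were listed, compared with 27.3% of the 19985 protein-coding genes. Listed members were also longer, with a median of 3410 exon bases, against 2231 in the 47 members not listed, and all listed protein-coding genes had a median of 1423. By class, 19 of 49 neuronal members (38.8%), 14 of 23 muscle members (60.9%) and 7 of 14 others (50%) were listed. Annotated muscle members had a median of 2165 exon bases and neuronal members one of 2897. Within both classes the listed members were the longer ones. Their medians were 2498.5 exon bases against 1681 in muscle members not listed, and 3410 against 2597 in neuronal members. Whether length played a part in the listing was not tested.

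Within the classes the listing was uneven. Of the members that build the sarcomere or attach it, 13 of 15 were listed. Of the receptors and excitation proteins of muscle, 1 of 8 was listed, the ryanodine receptor unc-68. The subunits unc-29, unc-38 and unc-63 of the levamisole-sensitive acetylcholine receptor and the GABA receptor unc-49 were not listed. Among neuronal members, 6 of 10 genes of axonal transport and cytoskeleton, 4 of 8 of axon guidance, 6 of 15 of synaptic release, 2 of 9 of channels and signalling and 1 of 7 transcription and splicing factors were listed. Not listed were the vesicular transporters of acetylcholine (unc-17) and GABA (unc-47), syntaxin (unc-64), the active zone protein RIM (unc-10) and CAPS of dense core vesicles (unc-31). The one listed factor, the nuclear receptor unc-55 of VD motor neurons, was at 0 in both groups, as were the septin unc-61 and the coiled-coil protein unc-69 of axon growth.

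Of the 41 listed members, 38 were above 0 in a group and 30 in both. The members at or above 2-fold higher in alg-2(ok304) numbered 15 of 38, where 21.7% of the 4757 genes above 0 in a group did so. At or beyond 2-fold lower were 8 members, compared with 13.4% of all genes, and 7 lay within 2-fold, compared with 20.2%. A further 7 members were above 0 in alg-2(ok304) alone, compared with 38.5% of all genes, and 1 in wild type alone, compared with 6.2%. Higher genes and genes seen in alg-2(ok304) alone together made up 57.9% of the members and 60.2% of all genes. In direction the members thus lay close to the background. Above 0 in both groups were 30 of the 38 members and 2630 of the 4757 genes.

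A gene with few reads is easily at 0 in a group, so the counts were repeated with a floor on the sum. Among the 26 members with at least 10 fitted reads in a group, 14 were higher, 5 within 2-fold, 6 lower, 1 above 0 in alg-2(ok304) alone and 0 in wild type alone. Over the 2856 genes past the same floor these shares were 32.7%, 22.8%, 14.8%, 26.8% and 2.98% in that order. Higher members and the one seen in alg-2(ok304) alone came to 57.7% of the 26, compared with 59.5% of all genes past the floor. No more than 7 members had 10 or more fitted reads in both groups, and 33 of the 41 were under 10 in wild type.

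**Figure D1:**
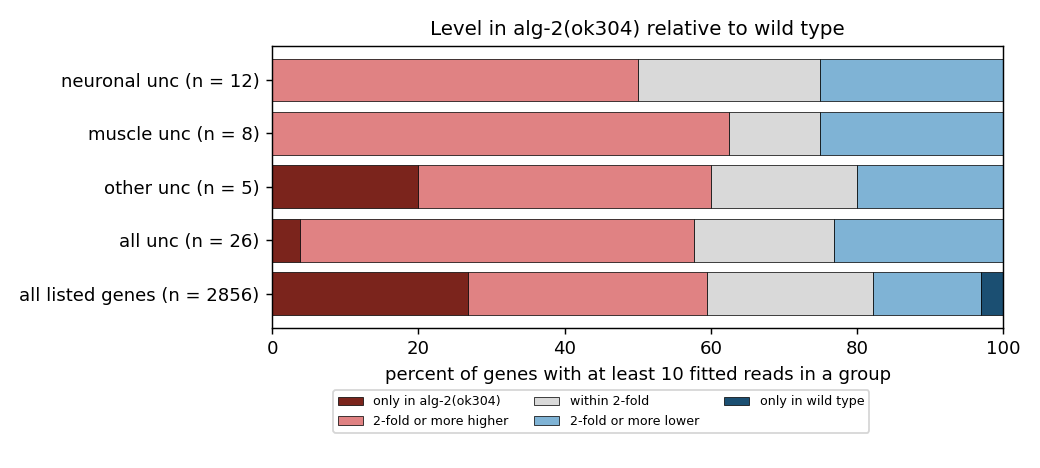
Stacked bars give the percent of genes with at least 10 fitted reads in a group that were above 0 in alg-2(ok304) alone, at least 2-fold higher, within 2-fold, at least 2-fold lower or above 0 in wild type alone, for the neuronal, muscle, other and all unc genes and for all 2856 such genes. The bars of unc genes hold fewer genes above 0 in alg-2(ok304) alone (1 of 26) than the bar of all genes (26.8%), and the summed red shares of all unc genes and all genes are 57.7% and 59.5%.

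Neuronal members above 0 in both groups had a median log2 ratio of 0.92 (13 genes) and muscle members of 0.83 (12 genes), where all such genes had 0.51. Of the 17 neuronal members above 0 in a group, 6 were higher, 4 within 2-fold, 3 lower, 3 above 0 in alg-2(ok304) alone and 1 in wild type alone. The 14 muscle members held 6 higher, 2 within 2-fold, 4 lower and 2 above 0 in alg-2(ok304) alone. Higher genes and genes in alg-2(ok304) alone made up 52.9% of the neuronal and 57.1% of the muscle members, compared with 60.2% of all genes. Lower genes and genes in wild type alone made up 23.5% and 28.6%, compared with 19.6%. By the joint share of higher genes and genes in alg-2(ok304) alone, neither class thus exceeded the background. Called higher were 35.3% of the neuronal and 42.9% of the muscle members, compared with 21.7% of all genes. Past the floor of 10, the joint share was 50% of 12 neuronal and 62.5% of 8 muscle members, compared with 59.5% of all genes. Median log2 ratios past the floor were 0.99 and 2.22 in that order, compared with 0.84. The log2 ratios ran between -2.28 and 3.71 in neuronal and between -3.22 and 3.03 in muscle members.

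**Figure D2:**
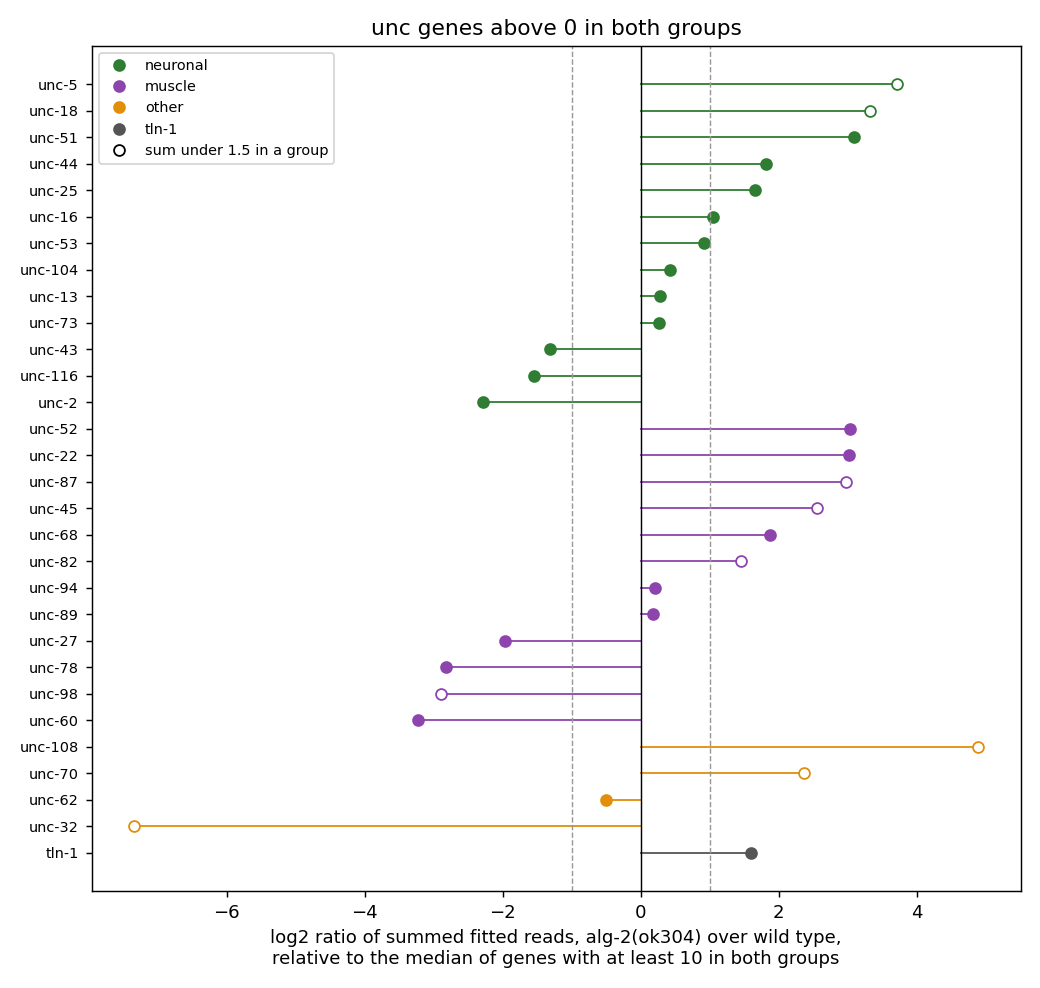
Each row is 1 of the 30 unc genes above 0 in both groups, coloured by class, with its log2 ratio of summed fitted reads in alg-2(ok304) over wild type, relative to the median of genes with at least 10 in both. Dashed lines mark 2-fold and open circles mark a sum under 1.5 in a group. Neuronal and muscle rows both spread across the dashed lines on either side, and unc-32 (-7.34) and unc-108 (4.89) lie at the ends.

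Among the genes that guide axons, unc-5 was far higher in alg-2(ok304). The gene encodes a netrin receptor for repulsion and had 8.82, 10.3 and 19.8 fitted reads in the alg-2(ok304) libraries, against 0.283, 0.396 and 0.430 in wild type. The alg-2(ok304) values were the higher ones, and the log2 ratio of 3.71 rests on the lowest step in wild type. The navigator unc-53, of cell migration and outgrowth, had 3.45, 4.05 and 7.76 fitted reads in alg-2(ok304), against 0.769, 1.07 and 1.17 in wild type (log2 ratio 0.92). The Trio exchange factor unc-73 had 4.10, 4.81 and 9.20 fitted reads in alg-2(ok304), against 1.44, 2.01 and 2.18 in wild type (0.26). Both were within 2-fold on the scale used, unc-53 just inside it and past it without any 1 of the wild-type libraries (1.03 to 1.08). Leaving out a library shifts every gene by the same amount, through the scale alone, and does not check agreement between replicates. The ADAM protein unc-71 was at 0 in alg-2(ok304) and had a sum of 1.84 in wild type. The netrin unc-6 and its receptor unc-40 were not listed.

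Of the 5 members of axonal transport and the axonal cytoskeleton above 0 in a group, 3 were higher, 1 within 2-fold and 1 lower. Over all genes these shares were 21.7%, 20.2% and 13.4% in that order. The ankyrin unc-44, a large scaffold of the axonal membrane skeleton, was the neuronal member with the most reads in alg-2(ok304), with 36.8, 43.2 and 82.6 in its libraries, against 4.37, 6.11 and 6.64 in wild type. Its sums of 163 and 17.1 fitted reads, a log2 ratio of 1.82, make it the only higher member of the class with at least 10 in both groups. It spans bases 5975557 to 6004857 of chromosome IV in WBcel235. The kinase unc-51, of axon growth and autophagy, had 9.80, 11.5 and 21.99 fitted reads in alg-2(ok304), against 0.484, 0.676 and 0.735 in wild type (log2 ratio 3.09). That ratio rests on a wild-type sum of 1.90. The JIP3 adaptor unc-16, which ties cargo to kinesin-1, had 9.35, 10.97 and 20.99 in alg-2(ok304), against 1.89, 2.64 and 2.87 in wild type (1.06). This was just past 2-fold, and inside it without any 1 of the alg-2(ok304) libraries (0.86 to 0.95), a shift of the scale alone.

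On the scale used, the kinesin-1 heavy chain unc-116 was lower and its adaptor unc-16 higher. Under totals of all genes both had a positive log2 ratio (0.99 and 3.59), and under totals outside ribosomal RNA and nearby genes both a negative one (-2.78 and -0.18). The gene unc-116 had 2.52, 2.96 and 5.66 fitted reads in alg-2(ok304), against 3.10, 4.33 and 4.70 in wild type, with a log2 ratio of -1.55. The kinesin-3 unc-104, which moves synaptic vesicle precursors, summed to 6.86 in alg-2(ok304) and 1.90 in wild type, a log2 ratio of 0.43.

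Genes of synaptic release also split. The Munc18 gene unc-18, whose product binds syntaxin for vesicle fusion, had 5.81, 6.82 and 13.05 fitted reads in the alg-2(ok304) libraries, against 0.243, 0.340 and 0.369 in wild type. Its log2 ratio of 3.33 again rests on the lowest step in wild type. The glutamic acid decarboxylase unc-25, which makes GABA, had 4.01, 4.71 and 9.002 fitted reads in alg-2(ok304), against 0.532, 0.744 and 0.808 in wild type (1.66). The priming factor unc-13 (Munc13) had 4.30, 5.04 and 9.65 in alg-2(ok304), against 1.48, 2.07 and 2.25 in wild type, which was a log2 ratio of 0.29 and within 2-fold.

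The presynaptic calcium channel subunit unc-2 was lower. It had 2.79, 3.28 and 6.27 fitted reads in alg-2(ok304), against 5.71, 7.98 and 8.67 in wild type, with a log2 ratio of -2.28 that was the lowest of the neuronal members. The calcium/calmodulin-dependent kinase II gene unc-43 had 8.28, 9.72 and 18.6 fitted reads in alg-2(ok304), against 8.65, 12.1 and 13.1 in wild type. Its log2 ratio was -1.31, from near equal sums of 36.6 in alg-2(ok304) and 33.9 in wild type. The endocytic genes unc-41 (stonin) and unc-57 (endophilin A) and the stomatin-like unc-24 were listed at 0 in wild type, with sums of 6.84, 3.86 and 8.63 in alg-2(ok304).

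**Figure D3:**
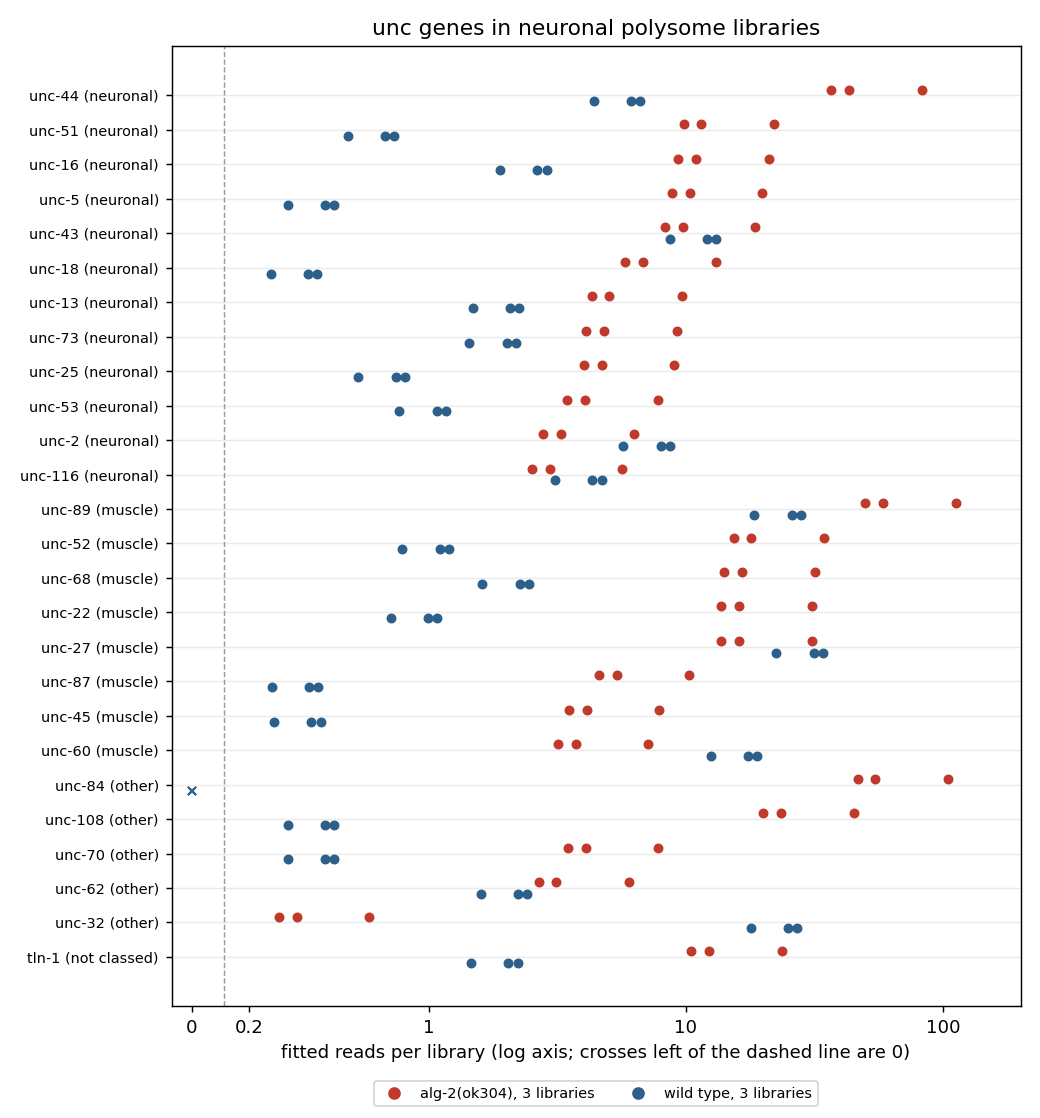
Fitted reads in each of the 3 alg-2(ok304) and 3 wild-type libraries are shown on a log axis for the 26 unc genes with a sum of at least 10 in a group, ordered by class, with crosses at 0. Spacing within a group is the same in every row because the values are fitted. Most rows have alg-2(ok304) to the right, whereas unc-60 (14.02 and 48.8 summed) and unc-32 (1.16 and 70.01) have it to the left of wild type.

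Muscle members lay on both sides of no change. The twitchin gene unc-22, a giant kinase of the thick filament, had 13.7, 16.1 and 30.8 fitted reads in alg-2(ok304), against 0.712, 0.994 and 1.08 in wild type (log2 ratio 3.02). Perlecan of the basement membrane under muscle, unc-52, had 15.3, 17.97 and 34.4 in alg-2(ok304), against 0.789, 1.10 and 1.20 in wild type (3.03). Both are large genes that were high in alg-2(ok304) and had few reads in wild type. The ryanodine receptor unc-68, the calcium release channel of the sarcoplasmic reticulum, had 14.1, 16.5 and 31.6 fitted reads in alg-2(ok304), against 1.62, 2.26 and 2.45 in wild type (1.87).

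The calponin-like unc-87 of thin filaments had 4.60, 5.40 and 10.3 fitted reads in alg-2(ok304), against 0.245, 0.342 and 0.372 in wild type (log2 ratio 2.98). The myosin chaperone unc-45 had 3.51, 4.12 and 7.88 in alg-2(ok304), against 0.250, 0.350 and 0.380 in wild type (2.56). Both wild-type sums were on the lowest step. Obscurin of the M-line, unc-89, was the member with the most reads in alg-2(ok304), with 49.9, 58.6 and 112.006 in its libraries, against 18.5, 25.8 and 28.0 in wild type. On the scale used this was a log2 ratio of 0.18, within 2-fold.

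The troponin I gene unc-27 was lower, with 13.7, 16.1 and 30.8 fitted reads in alg-2(ok304), against 22.5, 31.4 and 34.1 in wild type (log2 ratio -1.96). It lies at bases 8789456 to 8790621 of chromosome X. Its paralog tni-3, in the list of muscle markers, had sums of 95.5 in alg-2(ok304) and 11.5 in wild type (1.63), and how the counting shared reads between troponin I copies is not given in the sources used here, which leaves both values uncertain. The cofilin gene unc-60, which severs actin filaments, had 3.17, 3.72 and 7.12 fitted reads in alg-2(ok304), against 12.5, 17.4 and 18.9 in wild type. Its log2 ratio was -3.22, the lowest of the muscle members. It lies at bases 1475086 to 1479576 of chromosome V and overlaps F53E2.2, which was not listed, on the same strand.

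Of the other muscle members, the actin-interacting protein 1 gene unc-78, a partner of cofilin, summed to 2.34 in alg-2(ok304) and 6.19 in wild type (log2 ratio -2.82). The attachment gene unc-98 summed to 1.19 in alg-2(ok304) and 3.29 in wild type (-2.89), and it overlaps pcyt-1 on the opposite strand, which had 6.90 and 4.22 in that order. Whether the counting used strand is not given in the sources used here. Tropomodulin unc-94 and the kinase unc-82 of thick filaments had log2 ratios of 0.21 and 1.45. The kindlin unc-112 and the PINCH protein unc-97, both of integrin attachments, were listed at 0 in wild type with 4.36 and 1.96 in alg-2(ok304). Talin, tln-1, from the same attachments, had 10.5, 12.3 and 23.6 fitted reads in alg-2(ok304), against 1.46, 2.04 and 2.22 in wild type (1.60).

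The members with the most extreme ratios were in neither class. The gene unc-108, which encodes the RAB-2 GTPase of vesicle traffic, had 20.0, 23.5 and 44.9 fitted reads in alg-2(ok304), against 0.283, 0.395 and 0.429 in wild type (log2 ratio 4.89, with the lowest step in wild type). It lies at bases 3822883 to 3826514 of chromosome I. The SUN protein unc-84, which sits in the nuclear envelope and positions nuclei, had 46.5, 54.6 and 104.4 fitted reads in alg-2(ok304) and was at 0 in every wild-type library. It was the second highest of all members in alg-2(ok304), and it lies at bases 13584775 to 13589821 of chromosome X.

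In the opposite direction, unc-32 encodes a subunit of the vacuolar proton pump, which acidifies synaptic vesicles and other organelles. It had 0.262, 0.307 and 0.587 fitted reads in alg-2(ok304), against 17.9, 24.98 and 27.1 in wild type, a log2 ratio of -7.34 with alg-2(ok304) on its lowest step. It lies at bases 8905615 to 8911756 of chromosome III and made up 16.02% of all member reads in wild type. The beta spectrin unc-70 of the membrane skeleton had 3.48, 4.08 and 7.80 in alg-2(ok304), against 0.283, 0.395 and 0.429 in wild type (2.37). The Meis homeobox factor unc-62 had 2.67, 3.14 and 5.999 in alg-2(ok304), against 1.59, 2.22 and 2.41 in wild type (-0.50). The septin unc-59 had a sum of 4.42 in alg-2(ok304) and was at 0 in wild type.

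**Figure D4:**
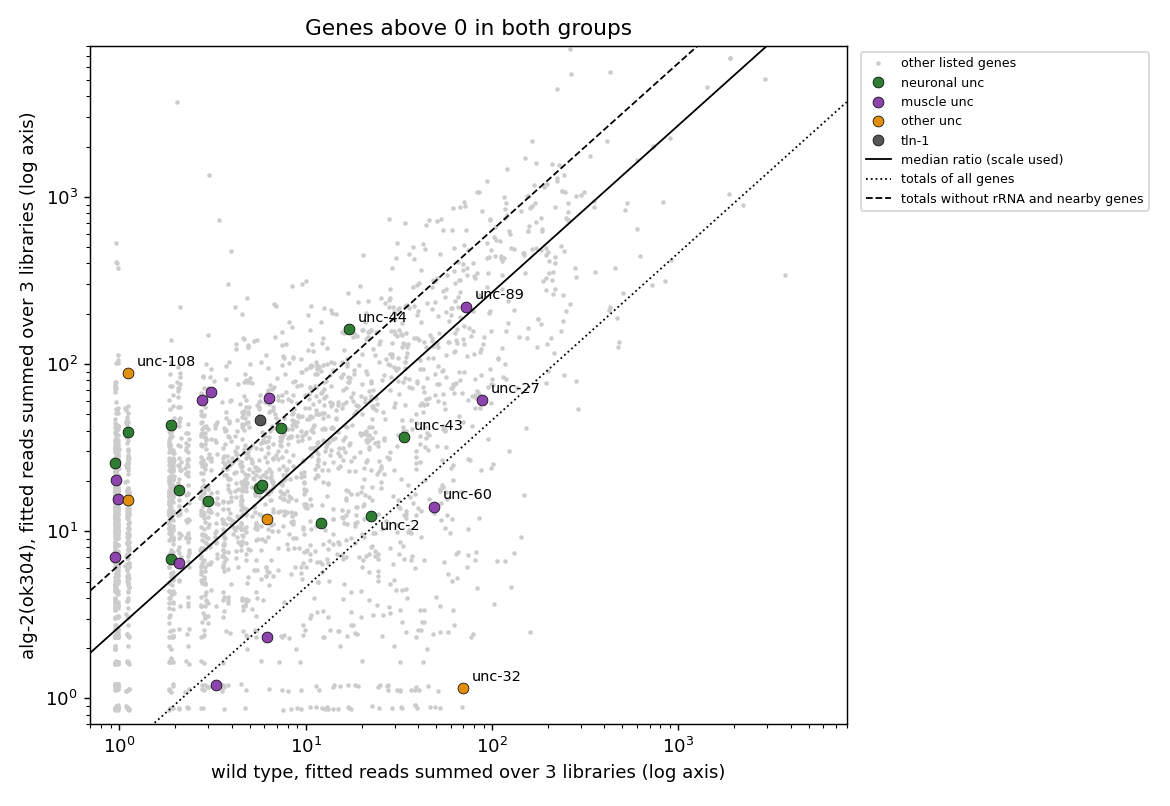
Summed fitted reads of genes above 0 in both groups, with wild type on the x axis and alg-2(ok304) on the y axis, both logarithmic; grey dots are other listed genes and coloured dots unc genes by class. The solid line is the ratio used as no change (2.68-fold), and the dotted and dashed lines are the ratios from totals of all genes and from totals outside ribosomal RNA and nearby genes. Columns of dots at the left are steps of single reads, on which unc-108 lies, and unc-32 lies at the lower right.

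How many members keep their call depends on the scale drawn as lines in the scatter plot. Under all of the scales tried, 9 of the 15 higher members stayed at least 2-fold higher, namely unc-5, unc-18, unc-22, unc-45, unc-51, unc-52, unc-70, unc-87 and unc-108. Of these, unc-5, unc-18, unc-45, unc-70, unc-87 and unc-108 were on the lowest step in wild type. The others, unc-51, unc-22 and unc-52, also had few reads there, with wild-type sums of 1.90, 2.79 and 3.09. Of the 8 lower members 1, unc-32, stayed at least 2-fold lower. In sign alone, 18 of the 30 members above 0 in both groups held under every scale. No share over all genes is given for these counts, so they describe the members alone.

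A comparison of neuronal with muscle members inside a group needs no scale. Neuronal members summed to 468 and muscle members to 545 fitted reads in alg-2(ok304), a ratio of 0.859, and to 117 and 236 in wild type, a ratio of 0.497. The neuronal share relative to muscle was thus 1.73 times as high in alg-2(ok304). Per kb of exon the ratios were 0.714 in alg-2(ok304) and 0.112 in wild type, 6.37 times as high.

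Much of both differences rested on the short genes unc-27 and unc-60, which were classed as muscle from textbook roles and not from these data. Per kb of exon, unc-27 was at 65.0 fitted reads in alg-2(ok304) and 94.3 in wild type, and unc-60 at 19.6 in alg-2(ok304) and 68.1 in wild type. Without unc-27 and unc-60, chosen after their values were seen, the neuronal over muscle ratio was 0.996 in alg-2(ok304) and 1.18 in wild type, which turned the direction round. Per kb it was 2.16 and 1.78 in that order, which kept the direction with a smaller difference. Leaving out unc-27 alone gave 0.967 in alg-2(ok304) and 0.792 in wild type, and unc-60 alone 0.882 and 0.626. Leaving out the ankyrin unc-44 gave 0.561 and 0.424. Leaving out obscurin unc-89 gave 1.44 and 0.717, so that all of these single removals kept the direction.

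A few members held a large part of the reads. The unscaled sum over all 41 was 1386 fitted reads in alg-2(ok304) and 437 in wild type. In alg-2(ok304), unc-89 took 15.9% of it, unc-84 14.8% and unc-44 11.7%. In wild type, unc-27 took 20.1%, unc-89 16.6%, unc-32 16.02% and unc-60 11.2%. Per kb of exon the order of members in alg-2(ok304) began with unc-108 (77.2 fitted reads per kb), unc-27 (65.0), unc-84 (55.02), unc-60 (19.6) and unc-51 (14.9). In wild type it began with unc-27 (94.3), unc-60 (68.1), unc-32 (19.3), unc-43 (5.36) and unc-116 (3.83). The fitted values carry no spread, so which neighbours in these orders differ could not be tested.

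Members that were lower had shorter transcripts than those that were higher, with medians of 2600 and 5974 exon bases. Over all genes these medians were 1572 and 1686.5. Across the 30 members above 0 in both groups, Spearman's rho between exon length and log2 ratio was 0.15. These genes share libraries and are not independent replicates, and over all 2626 such genes with a length rho was 0.000698. With at least 10 fitted reads in both groups, rho was 0.75 in the 7 members and -0.21 in 795 genes.

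Genes of the same pathways without an unc name were counted in the same way. Of 28 other genes of synapse and axon 11 were listed, and 4 of these were higher, 3 within 2-fold, 1 lower and 3 above 0 in alg-2(ok304) alone, with a median log2 ratio of 1.14 (8 genes). Those higher or in alg-2(ok304) alone were 63.6%, near the 60.2% of all genes, whose median was 0.51. Among these synapse and axon genes, tom-1 (tomosyn, which restrains vesicle priming) had sums of 30.8 in alg-2(ok304) and 2.28 in wild type (2.33). The G protein subunit egl-30, which promotes transmitter release, had sums of 60.5 and 5.70 in that order (1.98). The ephrin receptor vab-1 had 33.2 in alg-2(ok304) and 41.1 in wild type (-1.73).

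Other genes of muscle attachment, sarcomere and receptors numbered 27, of which 19 were listed, with 5 higher, 6 within 2-fold, 4 lower and 4 above 0 in alg-2(ok304) alone and a median log2 ratio of 0.57 (15 genes). Those higher or in alg-2(ok304) alone were 47.4%, compared with 60.2% of all genes. The integrin subunit pat-2 had sums of 19.5 in alg-2(ok304) and 0.983 in wild type (2.89). The collagen IV chain emb-9, a partner of perlecan in basement membrane, had 77.2 and 5.15 in that order (2.48). The other collagen IV chain in the list, let-2, was lower, at 26.4 in alg-2(ok304) and 24.9 in wild type (-1.34). Among the lower ones were thin filament genes, with tropomyosin lev-11 at 20.3 in alg-2(ok304) and 43.5 in wild type (-2.52) and troponin T tnt-2 at 17.8 and 52.9 (-2.99). Thin filament genes of this list did not all lie there, as tni-3 was higher and the troponin T gene mup-2 had 23.2 in alg-2(ok304) and was at 0 in wild type. Of the thick filament genes left out of the members by the rule, unc-15 (paramyosin) had a log2 ratio of -0.02 and unc-54 (myosin heavy chain) one of -0.29.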

How the data were processed

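Polysomes tagged in neurons were captured from 3 alg-2(ok304) and 3 wild-type samples of worms. Per the labels and the methods, the authors used a low-input kit, cutadapt 2.10, HISAT2 2.2.0, WBcel235, featureCounts of Subread 2.0.0 on Ensembl 96 and edgeR 3.11, and kept genes above 1 CPM in at least 2 samples, though 953 listed genes were at 0 in both groups. The table they deposited holds a signal per library, which the authors' model fitted from counts, so it is called fitted reads. Columns of the authors' comparison hold an average log CPM, a p-value and an FDR, and were not used. Worm numbers per sample differ between labels and methods. The planned edgeR test needed counts and was not run.

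Sums, ratios, shares and counts were computed in Python 3.11.15 with pandas 2.3.3. The code of the ratio scale was run on simulated data with a built-in shift and as many genes raised as lowered. That run cannot tell whether the scale suits these data. Exon lengths (bases of all exons merged) and positions came from Ensembl 115, of the same build. Every unc gene with a sum of at least 10 in a group is named with its library values, and others where a statement turns on them. The members and lists were chosen with earlier results of these data known. Fitted reads hold no molecular identifiers, and precision was limited by the reads outside ribosomal RNA and nearby genes, which were fewer in wild type, although total fitted reads per library were 4769250 to 10706566 in alg-2(ok304) and 11656552 to 17692391 in wild type.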

Additional observations from a re-analysis of the deposited data

How the results depend on the processing

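No paired analysis was possible because the fitted columns carry no spread between replicates; for the same reason DESeq2 and the unfiltered count fit were not run. Leaving out 1 library moved every log2 ratio by the same amount, at most 0.196, through the genes that set the scale. It therefore does not check agreement between replicates. Without any alg-2(ok304) library unc-16 fell inside 2-fold (0.86 to 0.95), and without any wild-type library unc-53 passed it (1.03 to 1.08). Higher unc genes thus ran over 14 to 16 and higher neuronal ones over 5 to 7, other muscle genes had 5 or 6 higher and 4 or 5 lower, and unc-89 changed sign (-0.01) without alg-2(ok304) replicate 3.

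Totals of all genes gave 23 higher and 1 lower of the unc genes (median log2 ratio 3.53), 11 and 0 of the neuronal (3.46) and 0 lower muscle members (3.37). The other synapse and axon genes then had 7 higher and 0 lower (3.68) and the other muscle genes 13 and 0 (3.105). Under these totals unc-116 (0.99), unc-43 (1.23), unc-2 (0.26) and unc-27 (0.58) changed sign. Totals without ribosomal RNA and nearby genes left 9 higher unc genes and turned the median round (-0.25), as in the neuronal (3 higher, -0.32), muscle (-0.41), other synapse and axon (1 higher, -0.094) and other muscle genes (2 higher, -0.67), and for unc-16 (-0.18).

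A floor of 10 gave median log2 ratios of 1.60 in all and 2.22 in muscle unc genes, with 2 lower in muscle. The same floor also raised the median over all listed genes, from 0.51 to 0.84. For a floor of 30, 4-fold, the pseudocount and the other scales, no share over all genes is given here, so those counts describe the members alone. A floor of 30 gave 9 higher and 4 lower unc genes (1.71), 1 lower neuronal (1.82), 3 higher and 2 lower muscle members, 3 higher other muscle genes (-0.63) and a median of 1.84 in the other synapse and axon genes. A 4-fold threshold gave 9 higher and 5 lower unc genes, 3 and 1 neuronal, 3 and 2 of the other muscle genes, and 1 and 0 of the other synapse and axon genes. A pseudocount of 0.5 CPM, which gives genes at 0 a ratio, gave a muscle median of 1.56, 9 higher other muscle genes and 7 higher other synapse and axon genes. Scales from totals without ribosomal RNA genes, from all genes above 0 in both groups, and from genes of at least 30 in both, the last chosen after seeing the data, gave 14, 13 and 14 higher unc genes in that order. Under these unc-16 fell inside 2-fold (0.76, 0.55 and 0.98). With the median of all genes above 0 in both, unc-62 became lower (-1.01), and there and without ribosomal RNA genes unc-73, unc-13 and unc-89, all within 2-fold, had negative signs. The cause of these shifts was not tested.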
